A study of Homo sapiens with 8 samples.

Results

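The DNA replication and S phase genes are a list of 41 human genes that load, activate and run the replication machinery, supply its nucleotides or rebuild chromatin behind the fork. They were listed by name, with earlier results of these data known, and measured on the array by a probe set with exactly 1 gene symbol. Where a gene had several such probe sets, the one with the highest mean over the 8 arrays was used. All 41 listed genes were measured, of 18404 genes in all. Expression had been measured on Affymetrix arrays of total RNA from COLO829, a human melanoma cell line carrying BRAFV600E. The 4 groups, with 2 arrays each labelled A and B, were shMITF PLX4032, shMITF DMSO, shSCR PLX4032 and shSCR DMSO. Cell populations had been infected with a pGIPZ hairpin vector against MITF (shMITF) or with a scrambled control (shSCR), and all 4 groups had been selected with puromycin for 2 days. They were then given either 1 µM PLX4032 or the solvent DMSO for 24 hours. PLX4032, or vemurafenib, blocks the mutant BRAF kinase and with it ERK signalling. MITF is the transcription factor that directs melanocyte identity. The study is limited to 1 cell line, and its labels name a single hairpin construct against MITF. The labels do not say whether arrays A and B came from separate cultures, so p-values measure the spread between these arrays only, which may be technical.

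Replication is prepared in G1, when the origin recognition complex with CDC6 and CDT1 loads the MCM2 to MCM7 ring onto DNA. In S phase CDC45 and the GINS complex join the ring to form the active helicase, and polymerases alpha, epsilon and delta copy the strands behind it with the help of the PCNA clamp. Many of these genes are known targets of E2F transcription factors, which are held back by the retinoblastoma protein until cyclin-dependent kinases release them. BRAF signalling drives the cyclins that start this sequence in melanoma cells.

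Levels are log2 intensities, so a log2 change of -1 means that the signal halved. A change was called when limma's two-sided test with Benjamini-Hochberg adjustment over all 18404 genes gave an adjusted p under 0.05, and each ± after a change is its standard error. Duplicate arrays correlated at Pearson's r of 0.997 to 0.998 over all genes. MITF itself measured 10.07 and 10.08 in shMITF PLX4032 cells, 9.57 and 9.47 in shMITF DMSO cells, 10.88 and 10.80 in shSCR PLX4032 cells, against 10.44 and 10.46 in shSCR DMSO cells. Both shMITF groups lay below the shSCR group given the same treatment, by -0.93 ± 0.0803 in DMSO and -0.76 ± 0.0803 under PLX4032. DUSP6, an ERK phosphatase whose expression follows ERK activity, changed by -2.55 ± 0.0841 with PLX4032 in shMITF cells and by -2.68 ± 0.0841 in shSCR cells. CCND1, which encodes cyclin D1, changed by -1.80 ± 0.0867 and -1.98 ± 0.0867 in the same comparisons, and the hairpin's difference in DMSO was not past the threshold (0.053 ± 0.0867, adjusted p = 0.674, with a sign that flipped with arrays centred on constitutive genes). Of the melanocyte lineage genes, SOX10 and PMEL ranged from 10.36 to 11.06 and from 11.70 to 12.86 over the arrays, whereas MLANA (4.32 to 8.57) and TYRP1 (5.54 to 10.33) were lowest in shMITF DMSO cells and highest in shSCR PLX4032 cells. The leukocyte gene PTPRC ranged from 3.20 to 3.47 and the keratinocyte gene KRT5 from 4.27 to 4.55, while CD68 of the leukocyte list (10.44 to 11.08) and LUM of the fibroblast list (9.30 to 9.84) were bright on every array. The array medians were 9.99 to 10.88 over 9 melanocyte markers, 4.14 to 4.52 over 7 leukocyte markers, 5.49 to 5.79 over 7 fibroblast markers and 4.27 to 4.55 over 5 keratinocyte markers.

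Cells with both perturbations had less mRNA of all 41 replication genes than cells with neither. In shMITF PLX4032 against shSCR DMSO cells, 41 of 41 were called lower and 0 higher, with a median log2 change of -1.60, beside a median of 0.08 over all genes. Of all genes tested, 21.5% were called lower and 27.1% higher. The falls ranged from -3.52 for CLSPN to -0.86 for PCNA. On the deposited scale 40 of 41 were at least 2-fold, beside 952 of all 18404 genes called lower by that size. In these bulk RNA samples, fewer cells in S phase and less of each mRNA per cell cannot be told apart. All 41 changes kept their negative sign under every scaling of the arrays that was tried. With arrays centred on constitutive genes, however, the members' median became -0.90, 17 of 41 falls were at least 2-fold and the call of PCNA was lost. The median of all genes was 0.79 under that centring, with 5.75% of all genes called lower and 86.1% higher.

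On every array of the shSCR DMSO group, all 41 genes stood above their values on the other 6 arrays, which 2779 of all 18404 genes did. Both shMITF PLX4032 arrays were the lowest of the 8 for 37 genes, as for 2454 of all genes. The array median over the 41 genes was 7.31 and 7.39 in shMITF PLX4032 cells, 8.50 and 8.57 in shMITF DMSO cells, 8.33 and 8.38 in shSCR PLX4032 cells, against 9.35 and 9.52 in shSCR DMSO cells. The 4 pairs of arrays therefore did not overlap in this summary, and each perturbation alone gave a value between the extremes. For 33 genes the group means on the deposited scale stood in one order, lowest in shMITF PLX4032, then shSCR PLX4032, then shMITF DMSO, and highest in shSCR DMSO. GINS1, PRIM1, PRIM2, POLD1, LIG1, CHAF1B and TIMELESS had shMITF DMSO below shSCR PLX4032, and POLA1 alone was lowest in shSCR PLX4032. The first order held for 34 genes with quantile normalization repeated and for 32 with arrays centred on the median deviation of constitutive genes. The place of the single perturbations still rested on the scaling. With arrays centred on constitutive genes 0 genes had the first order, and 23 had shMITF DMSO below shSCR PLX4032 between the same extremes. That centring adds 1 constant to each array. It moved the median of all genes to 0.87 for PLX4032 in shSCR cells and to -0.045 for the hairpin in DMSO. The loss of the first order went with that shift of all genes and is not particular to the 41.

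**Figure D1:**
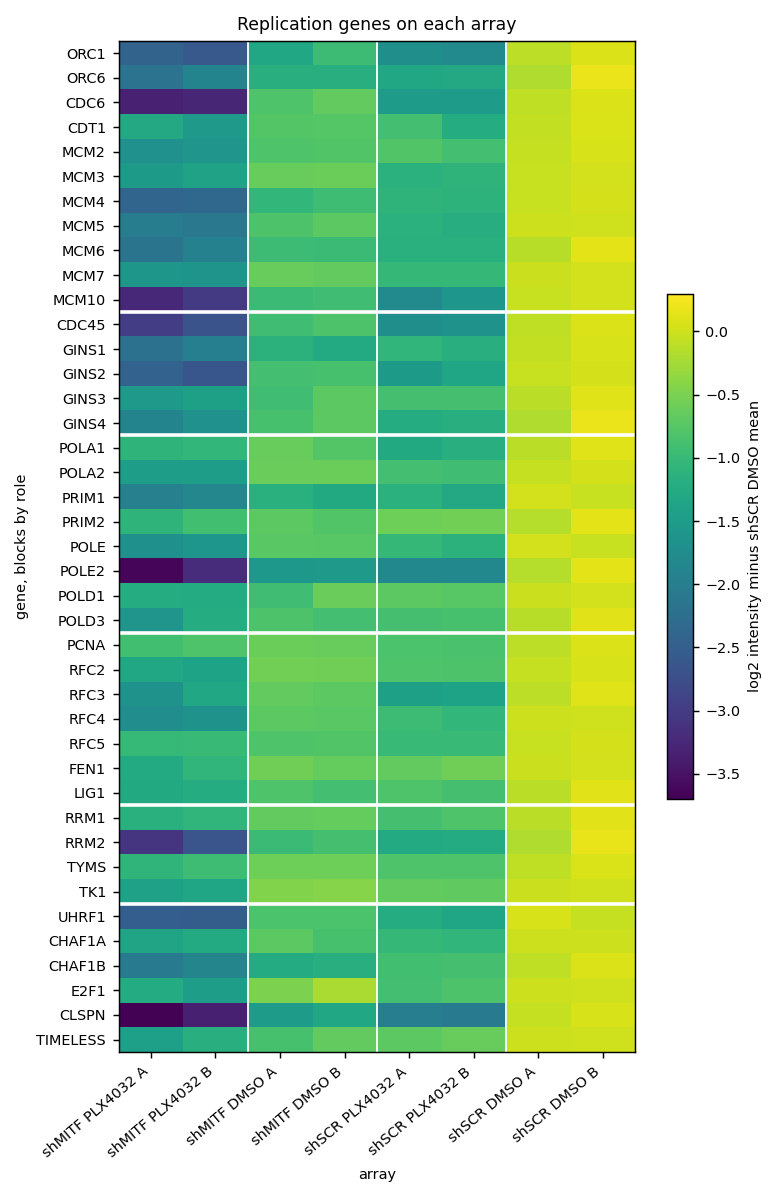
Log2 intensity of the 41 replication genes (rows, in blocks by role) on each of the 8 arrays (columns), shown as the difference from the gene's mean over the 2 shSCR DMSO arrays. Yellow is close to that mean and dark blue is lower; the darkest cells belong to CLSPN, POLE2, CDC6 and MCM10 in shMITF PLX4032 cells.

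Origin licensing genes showed a median combined change of -2.06, with all 11 called lower. ORC1, the largest subunit of the origin recognition complex, measured 5.43 and 5.28 in shMITF PLX4032 cells, 6.53 and 6.90 in shMITF DMSO cells, 6.14 and 6.05 in shSCR PLX4032 cells, against 7.76 and 7.95 in shSCR DMSO cells. Each shMITF PLX4032 array was below all others, and the combined change was -2.50 ± 0.123. ORC6, a smaller subunit of the same complex, changed by -2.04 ± 0.123. In shMITF PLX4032 cells ORC1 and ORC6 were each no brighter than 8 of 19 leukocyte, fibroblast and keratinocyte markers, so these falls may be understated. CDC6, the ATPase that works with the complex to load the helicase, measured 6.84 and 6.90 in shMITF PLX4032 cells, 9.37 and 9.51 in shMITF DMSO cells, 8.67 and 8.67 in shSCR PLX4032 cells, against 10.08 and 10.26 in shSCR DMSO cells. Its 4 groups did not overlap, and the combined change of -3.30 ± 0.0917 was a 9.85-fold fall. CDT1, which escorts the MCM ring to the origin, measured 6.28 and 6.03 in shMITF PLX4032 cells, 6.79 and 6.81 in shMITF DMSO cells, 6.67 and 6.34 in shSCR PLX4032 cells, against 7.50 and 7.63 in shSCR DMSO cells. The shMITF PLX4032 arrays were lowest, and the combined change was -1.41 ± 0.121, the smallest among the licensing genes.

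The 6 subunits of the MCM ring fell together. MCM2 measured 7.88 and 7.94 in shMITF PLX4032 cells, 8.74 and 8.76 in shMITF DMSO cells, 8.77 and 8.66 in shSCR PLX4032 cells, against 9.49 and 9.61 in shSCR DMSO cells. Its arrays were lowest with both perturbations, and the values of the single perturbations overlapped between the extremes. The combined changes were -1.64 ± 0.0846 for MCM2, -1.46 ± 0.0816 for MCM3, -2.38 ± 0.0807 for MCM4, -2.06 ± 0.0821 for MCM5, -2.06 ± 0.105 for MCM6 and -1.60 ± 0.0768 for MCM7. MCM10, which helps to start the loaded helicase and is not part of the ring, measured 5.71 and 5.94 in shMITF PLX4032 cells, 7.99 and 8.03 in shMITF DMSO cells, 7.17 and 7.37 in shSCR PLX4032 cells, against 8.93 and 8.997 in shSCR DMSO cells. Its groups did not overlap, and its combined change of -3.14 ± 0.101 was larger than that of each of the 6 ring genes.

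Helicase activation genes had a median combined change of -2.09 and 5 of 5 called lower. CDC45, the helicase cofactor that travels with the ring, measured 6.61 and 6.91 in shMITF PLX4032 cells, 8.66 and 8.77 in shMITF DMSO cells, 7.87 and 7.93 in shSCR PLX4032 cells, against 9.50 and 9.67 in shSCR DMSO cells. The shMITF PLX4032 arrays stood well below the rest, and the combined change was -2.82 ± 0.11. Of the 4 GINS subunits, GINS2 changed most at -2.54 ± 0.0953, followed by GINS1 at -2.09 ± 0.1, GINS4 at -1.78 ± 0.124 and GINS3 at -1.48 ± 0.104.

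Polymerase and primase genes had a median combined change of -1.44, with 8 of 8 called lower, and POLE2 gave the largest change. POLE2, the second subunit of the leading-strand polymerase epsilon, measured 4.70 and 5.14 in shMITF PLX4032 cells, 6.77 and 6.79 in shMITF DMSO cells, 6.50 and 6.49 in shSCR PLX4032 cells, against 8.19 and 8.47 in shSCR DMSO cells. Its shMITF PLX4032 values were the lowest by a wide margin, and the combined change was -3.41 ± 0.136, measured against a level no brighter than that of 9 of 19 leukocyte, fibroblast and keratinocyte markers. POLE, the catalytic subunit of the same enzyme, changed by -1.64 ± 0.0816. POLA1, the catalytic subunit of the polymerase that lays down primers with primase, measured 7.90 and 7.95 in shMITF PLX4032 cells, 8.37 and 8.24 in shMITF DMSO cells, 7.73 and 7.83 in shSCR PLX4032 cells, against 8.89 and 9.11 in shSCR DMSO cells. Its lowest arrays were those of shSCR PLX4032 cells, and the combined change was -1.08 ± 0.0968. Its partner POLA2 changed by -1.46 ± 0.0788. The primase subunit PRIM1 measured 8.27 and 8.39 in shMITF PLX4032 cells, 9.06 and 8.96 in shMITF DMSO cells, 9.09 and 8.95 in shSCR PLX4032 cells, against 10.26 and 10.20 in shSCR DMSO cells, while PRIM2 measured 6.92 and 7.11 in shMITF PLX4032 cells, 7.31 and 7.24 in shMITF DMSO cells, 7.44 and 7.46 in shSCR PLX4032 cells, against 7.88 and 8.16 in shSCR DMSO cells. Both were lowest in shMITF PLX4032 cells, with combined changes of -1.90 ± 0.0883 for PRIM1 and -1.01 ± 0.106 for PRIM2. In polymerase delta, which copies the lagging strand, the catalytic POLD1 changed by -1.23 ± 0.102 and the accessory POLD3 by -1.41 ± 0.127.

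Clamp, clamp loader and Okazaki fragment genes had a median combined change of -1.25 with 7 of 7 called lower, and nucleotide synthesis genes had the same rounded median with 4 of 4. PCNA, the sliding clamp, measured 9.37 and 9.48 in shMITF PLX4032 cells, 9.68 and 9.65 in shMITF DMSO cells, 9.44 and 9.43 in shSCR PLX4032 cells, against 10.19 and 10.38 in shSCR DMSO cells. Only the shSCR DMSO arrays stood clearly apart, and shMITF PLX4032 and shSCR PLX4032 values overlapped. The combined change of PCNA was -0.86 ± 0.0897. The clamp loader subunits changed by -1.35 ± 0.0801 for RFC2, -1.48 ± 0.115 for RFC3, -1.69 ± 0.0809 for RFC4 and -1.01 ± 0.0777 for RFC5. FEN1, the nuclease that trims Okazaki fragments, changed by -1.17 ± 0.09, and LIG1, the ligase that joins them, by -1.25 ± 0.0956. Among nucleotide synthesis genes RRM2, the S phase subunit of ribonucleotide reductase, measured 6.93 and 7.39 in shMITF PLX4032 cells, 9.05 and 9.15 in shMITF DMSO cells, 8.78 and 8.80 in shSCR PLX4032 cells, against 9.86 and 10.20 in shSCR DMSO cells. The shMITF PLX4032 arrays lay lowest, and RRM2 changed by -2.87 ± 0.146, while its partner RRM1 changed by -1.12 ± 0.0944. TYMS, which makes thymidylate, measured 9.63 and 9.77 in shMITF PLX4032 cells, 10.12 and 10.12 in shMITF DMSO cells, 9.91 and 9.91 in shSCR PLX4032 cells, against 10.63 and 10.79 in shSCR DMSO cells. Its shSCR DMSO arrays were highest, and the combined change was -1.01 ± 0.0882. TK1, the S phase thymidine kinase, changed by -1.38 ± 0.0772.

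Chromatin, E2F1 and fork protection genes had a median combined change of -1.66 and 6 of 6 called lower. CLSPN, which encodes the fork and checkpoint protein claspin, measured 4.45 and 4.77 in shMITF PLX4032 cells, 6.62 and 6.82 in shMITF DMSO cells, 6.13 and 6.05 in shSCR PLX4032 cells, against 8.06 and 8.18 in shSCR DMSO cells. Its 4 groups did not overlap, and the combined change of -3.52 ± 0.115 was the largest estimate among the 41 genes. The CLSPN level in shMITF PLX4032 cells was no brighter than that of 10 of 19 leukocyte, fibroblast and keratinocyte markers, so the size of its fall is uncertain and may be understated. UHRF1, which reads half-methylated DNA behind the fork, measured 7.30 and 7.28 in shMITF PLX4032 cells, 8.97 and 8.96 in shMITF DMSO cells, 8.57 and 8.44 in shSCR PLX4032 cells, against 9.85 and 9.74 in shSCR DMSO cells. The shMITF PLX4032 arrays were again lowest, and the combined change was -2.51 ± 0.0841. A second UHRF1 probe set, dim at 4.81 to 5.13 on every array, showed no such fall, whereas a second CLSPN probe set, at 4.34 and 4.42 in shMITF PLX4032 cells against 6.46 and 6.85 in shSCR DMSO cells, was lower as well. E2F1, the transcription factor that activates many of these genes, measured 7.54 and 7.30 in shMITF PLX4032 cells, 8.29 and 8.57 in shMITF DMSO cells, 7.88 and 7.95 in shSCR PLX4032 cells, against 8.77 and 8.78 in shSCR DMSO cells. The 4 pairs of E2F1 arrays did not overlap, and the combined change was -1.36 ± 0.11. The histone chaperone genes CHAF1A and CHAF1B changed by -1.31 ± 0.086 and -1.96 ± 0.094, and TIMELESS, a fork stabiliser, by -1.32 ± 0.104.

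**Figure D2:**
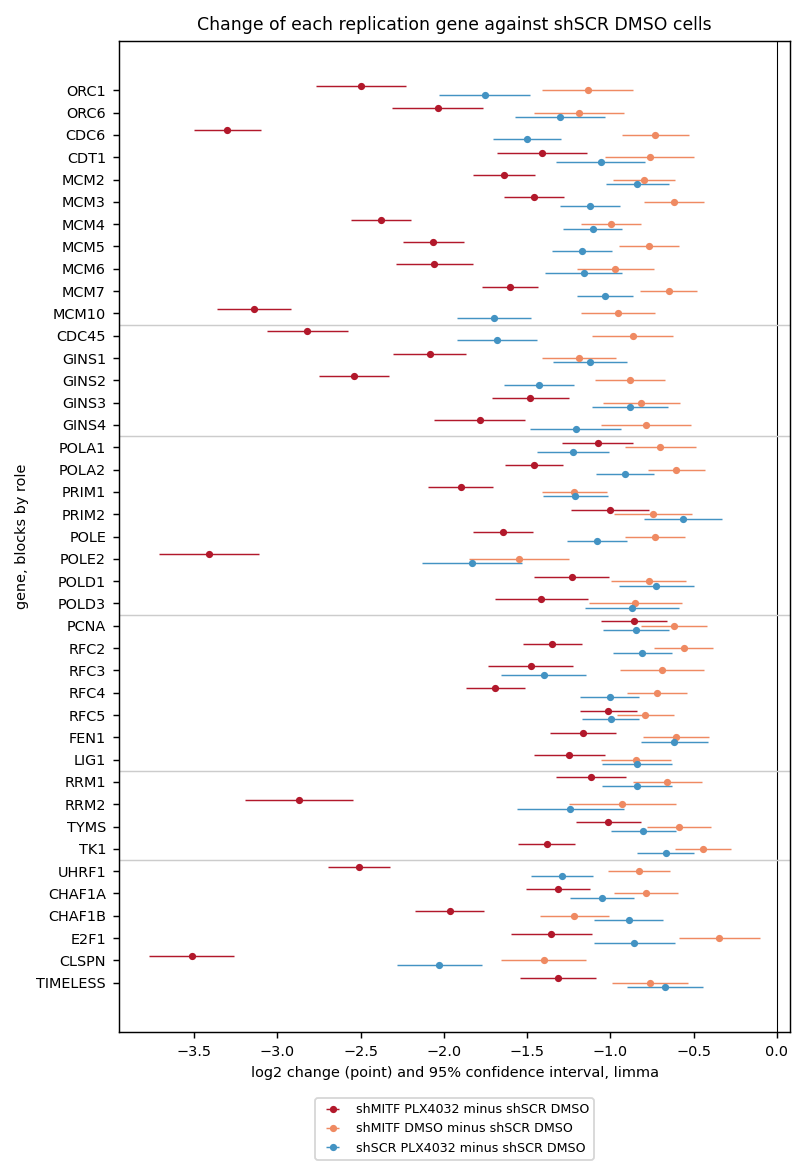
Log2 change of each of the 41 replication genes (rows, in blocks by role) against shSCR DMSO cells, with points for the estimate and bars for limma's 95% confidence interval, for shMITF PLX4032 (dark red), shMITF DMSO (orange) and shSCR PLX4032 (blue) cells. All points lie left of 0 on the deposited scale, and the dark red points reach -3.52 for CLSPN; with arrays centred on constitutive genes, 7 of the blue points would lie right of 0.

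To show the sequence context of the largest falls, the promoters of CLSPN, POLE2, CDC6 and GINS2 are given from 150 bases before to 30 bases after the transcription start, from RefSeq on GRCh38.p14. They are the called members with the largest combined changes whose promoter window held an E2F site. Capitals mark the 8 letters that match an E2F site on one strand, each sequence is written 5′ to 3′ on the gene's strand, and the positions are CLSPN chr1:35769949-35770128 (minus strand), POLE2 chr14:49688185-49688364 (minus strand), CDC6 chr17:40287729-40287908 (plus strand) and GINS2 chr16:85688925-85689104 (minus strand).
CLSPN: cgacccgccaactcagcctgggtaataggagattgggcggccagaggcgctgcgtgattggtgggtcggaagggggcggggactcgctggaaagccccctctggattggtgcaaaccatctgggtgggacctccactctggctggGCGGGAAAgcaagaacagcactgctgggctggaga
POLE2: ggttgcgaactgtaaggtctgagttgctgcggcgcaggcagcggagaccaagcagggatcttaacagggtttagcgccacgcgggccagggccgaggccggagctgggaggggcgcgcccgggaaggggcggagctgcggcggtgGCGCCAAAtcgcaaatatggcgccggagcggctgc
CDC6: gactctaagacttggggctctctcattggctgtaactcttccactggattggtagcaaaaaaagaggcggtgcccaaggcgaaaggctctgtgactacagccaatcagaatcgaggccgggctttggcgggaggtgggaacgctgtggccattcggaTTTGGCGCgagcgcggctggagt
GINS2: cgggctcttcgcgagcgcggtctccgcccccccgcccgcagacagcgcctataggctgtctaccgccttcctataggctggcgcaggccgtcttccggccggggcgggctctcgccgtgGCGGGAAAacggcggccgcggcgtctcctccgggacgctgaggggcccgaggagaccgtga

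The motif search covered the window from 250 bases before to 50 after the start on both strands, for 37 of the 41 genes; MCM4, MCM5, GINS4 and POLD3 had no entry in the promoter table used. An E2F site, spelled TTTCCCGC, TTTGGCGC, TTTGCCGC or TTTCGCGC, was found in 18 of 37 promoters (48.6%), and in 4.36% of the 14230 promoters of genes on the array. CCAAT was found in 22 of 37 (59.5%), beside 35.9% of array genes. The CHR element TTTGAA, known from genes expressed late in the cell cycle, was found in 1 of 37 (2.7%), beside 12.3%. The MITF E-box letters TCATGTG or TCACGTG were found in 5 of 37 (13.5%), beside 6.79%, and those 5 were MCM2, GINS3, FEN1, CHAF1A and TIMELESS. Matches of different motifs shared bases in 0 of the 37 promoters, and a match is a description of sequence, not of binding. Members with an E2F site had a median combined log2 change of -1.56 (18 genes) and those without one -1.38 (19 genes), while for shMITF DMSO against shSCR DMSO cells the medians were -0.78 and -0.77.

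With the hairpin alone, in DMSO, the whole list fell. In shMITF DMSO against shSCR DMSO cells, 41 of 41 genes were called lower and 0 higher, beside 18.8% of all genes called lower and 14.4% higher. The median log2 change was -0.79, beside 0.02 over all genes. The fall reached 1.5-fold for 38 members and 2-fold for 7, beside 1139 and 305 of all 18404 genes called lower by those sizes. The largest changes were -1.55 ± 0.136 for POLE2 (adjusted p = 9.72e-06), -1.40 ± 0.115 for CLSPN, -1.22 ± 0.0883 for PRIM1 and -1.22 ± 0.094 for CHAF1B. CHAF1B, a subunit of the chaperone that deposits histones on new DNA, measured 7.69 and 7.87 in shMITF PLX4032 cells, 8.50 and 8.55 in shMITF DMSO cells, 8.84 and 8.87 in shSCR PLX4032 cells, against 9.65 and 9.83 in shSCR DMSO cells. Its shMITF DMSO arrays lay below its shSCR PLX4032 arrays. At the other end were TK1 at -0.44 ± 0.0772 and E2F1 at -0.35 ± 0.11 (adjusted p = 0.0331). TK1 measured 9.27 and 9.33 in shMITF PLX4032 cells, 10.22 and 10.25 in shMITF DMSO cells, 10.03 and 9.996 in shSCR PLX4032 cells, against 10.67 and 10.69 in shSCR DMSO cells. Its 4 groups did not overlap, whereas the E2F1 call was lost with quantile normalization repeated (-0.24) and without shMITF DMSO A (-0.21), without either shSCR DMSO array or without either shSCR PLX4032 array. The calls of TK1 and E2F1 were both lost with arrays centred on the median deviation of constitutive genes, where their changes were -0.16 and -0.067. That centring moved the median of all genes to 0.30 in this comparison, with 7.32% of all genes called lower and 58.0% higher.

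With PLX4032 alone, in shSCR PLX4032 against shSCR DMSO cells, 41 of 41 were called lower and 0 higher on the deposited scale. Of all genes, 16.8% were called lower and 17.3% higher. With arrays centred on constitutive genes, however, 22 were called lower, PRIM2 was called higher and 7 changed sign. Under that centring 2.47% of all genes were called lower and 92.8% higher. That centring, which adds 1 constant to each array, moved the median of all genes to 0.87 and the members' median to -0.24. On the deposited scale the members' median log2 change was -1.06, beside 0.05 over all genes. Of the members' falls 24 were at least 2-fold, beside 526 of all 18404 genes called lower by that size. CLSPN (-2.03 ± 0.115), POLE2 (-1.83 ± 0.136), ORC1 (-1.75 ± 0.123) and MCM10 (-1.70 ± 0.101) had the largest changes. PRIM2 (-0.57 ± 0.106) and FEN1 (-0.62 ± 0.09) had the smallest, and their signs flipped under that centring, as did those of POLD1, RFC2, TYMS, TK1 and TIMELESS. FEN1 measured 7.74 and 7.92 in shMITF PLX4032 cells, 8.42 and 8.35 in shMITF DMSO cells, 8.33 and 8.43 in shSCR PLX4032 cells, against 8.97 and 9.02 in shSCR DMSO cells. Its shMITF DMSO and shSCR PLX4032 values overlapped, between the shMITF PLX4032 and shSCR DMSO values. The fall with PLX4032 was larger than the fall with the hairpin for 34 of 41 genes on the deposited scale. The count was 37 with quantile normalization repeated, 36 with arrays centred on the median deviation of constitutive genes and 0 with arrays centred on constitutive genes. This comparison was not tested, and both changes share the shSCR DMSO arrays.

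In shMITF cells given PLX4032, 39 of 41 genes were called lower than in shMITF cells given DMSO and 0 higher, on the deposited scale. All 41 estimates were negative there. Of all genes, 15.1% were called lower and 18.6% higher. With arrays centred on constitutive genes 13 were called lower, 9 were called higher and 16 changed sign. Under that centring 2.81% of all genes were called lower and 92.1% higher. The 9 called higher under that centring were POLA1, PRIM2, POLD1, PCNA, RFC5, LIG1, RRM1, TYMS and CHAF1A. The median log2 change in shMITF PLX4032 against shMITF DMSO cells was -0.85, beside 0.04 over all genes, and -0.083 beside 0.81 under that centring. CDC6 (-2.57 ± 0.0917, adjusted p = 6.91e-09), MCM10 (-2.19 ± 0.101), CLSPN (-2.11 ± 0.115) and CDC45 (-1.95 ± 0.11) changed most, and kept their sign under that centring. PRIM2 (-0.26 ± 0.106, adjusted p = 0.0832) and PCNA (-0.24 ± 0.0897, adjusted p = 0.0585) did not pass the threshold. RFC5 passed it narrowly at -0.22 ± 0.0777 (adjusted p = 0.0488) and lost the call when any 1 of the 8 arrays was left out. Leaving out 1 array also ended the calls of POLA1 (without shMITF DMSO A or shMITF PLX4032 A), LIG1 (without shMITF DMSO A) and POLD1 (without shMITF DMSO B).

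Under PLX4032, 35 of 41 genes were lower with the hairpin and 0 higher, beside 15% of all genes called lower and 13.5% higher. The median log2 change in shMITF PLX4032 against shSCR PLX4032 cells was -0.60, beside 0.02 over all genes. Of the members' calls 21 reached 1.5-fold, beside 993 of all 18404 genes called lower by that size. CDC6 changed most at -1.80 ± 0.0917, then RRM2 at -1.63 ± 0.146, POLE2 at -1.58 ± 0.136 and CLSPN at -1.49 ± 0.115. Changes of 6 genes did not pass the threshold. For PCNA the estimate was -0.013 (95% interval -0.21 to 0.18, adjusted p = 0.933) and for RFC5 -0.013 (-0.18 to 0.16, adjusted p = 0.924), and both signs flipped under quantile normalization and under the deviation centring. For RFC3 it was -0.077 (-0.33 to 0.18, adjusted p = 0.673), with a flip under the deviation centring. POLA1 stood at 0.15 (-0.064 to 0.36, adjusted p = 0.29), TYMS at -0.21 (adjusted p = 0.104) and CDT1 at -0.35 (adjusted p = 0.0516). The calls of RRM1 (-0.28, adjusted p = 0.0493) and CHAF1A (-0.26, adjusted p = 0.0408) were near the threshold. The RRM1 call was lost without either shMITF DMSO, shMITF PLX4032 or shSCR PLX4032 array, and the CHAF1A call without shMITF PLX4032 A or either shMITF DMSO or shSCR PLX4032 array. MCM3 and PRIM2 lost their calls without shMITF PLX4032 A or shSCR PLX4032 B, POLD3 without shMITF PLX4032 A or either shSCR PLX4032 array, and LIG1 without shSCR PLX4032 A.

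Whether PLX4032 acted differently in the presence of the hairpin was tested with the interaction, the PLX4032 change in shMITF cells minus that in shSCR cells. Of the 41 genes, 6 were called higher (a smaller fall in shMITF cells) and 1 lower (a larger fall), beside 6.97% of all genes called higher and 4.85% lower. Under the deviation centring 2 were called higher and 6 lower, and the members' median went from 0.14 to -0.050. That centring moves the interaction of every gene by the same constant, so the turn is not particular to the members. The count of called members was 3 without shMITF DMSO B and 4 without shSCR PLX4032 B, and shares of all genes in these refits are not reported here. The 1 called lower was CDC6 at -1.07 ± 0.13 (adjusted p = 0.000336), whose PLX4032 change was -2.57 in shMITF cells and -1.50 in shSCR cells. POLA1 was called higher at 0.85 ± 0.137 (adjusted p = 0.00206), with PLX4032 changes of -0.37 in shMITF cells and -1.23 in shSCR cells. RFC5 was called higher at 0.78 ± 0.11 (adjusted p = 0.000907), with changes of -0.22 and -0.999. These 3 kept their calls in all 16 refits with other settings or with 1 array left out.

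**Figure D3:**
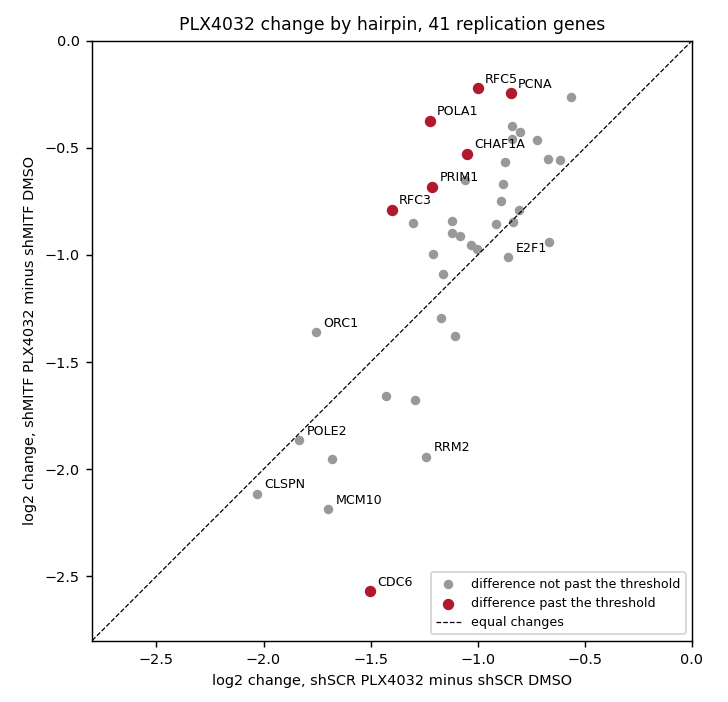
PLX4032 change of each of the 41 replication genes in shMITF cells (vertical axis) against the change in shSCR cells (horizontal axis), both in log2 on the deposited scale; the dashed line marks equal changes and red points are genes whose difference passed the threshold. CDC6 lies below the line at -2.57 against -1.50, and RFC5, PCNA, POLA1, CHAF1A, PRIM1 and RFC3 lie above it; with arrays centred on constitutive genes, 16 of the vertical and 7 of the horizontal values would be above 0.

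RFC5, a clamp loader subunit, measured 8.37 and 8.38 in shMITF PLX4032 cells, 8.59 and 8.60 in shMITF DMSO cells, 8.40 and 8.38 in shSCR PLX4032 cells, against 9.35 and 9.43 in shSCR DMSO cells. Its 3 perturbed groups lay within a narrow band and apart from shSCR DMSO. RFC3, another loader subunit, measured 9.25 and 9.59 in shMITF PLX4032 cells, 10.23 and 10.19 in shMITF DMSO cells, 9.47 and 9.52 in shSCR PLX4032 cells, against 10.80 and 10.999 in shSCR DMSO cells. The shMITF PLX4032 and shSCR PLX4032 values of RFC3 overlapped, and its interaction was 0.61 ± 0.163 (adjusted p = 0.0332). The interaction of RFC2, a loader subunit that was not called, was 0.019, a sign that flipped under all 3 rescalings. RFC2 measured 9.09 and 9.04 in shMITF PLX4032 cells, 9.85 and 9.85 in shMITF DMSO cells, 9.61 and 9.59 in shSCR PLX4032 cells, against 10.36 and 10.47 in shSCR DMSO cells. PCNA had an interaction of 0.60 ± 0.127 (adjusted p = 0.0104) and PRIM1 of 0.53 ± 0.125 (adjusted p = 0.0188). CHAF1A, the large subunit of the histone chaperone, measured 7.31 and 7.43 in shMITF PLX4032 cells, 7.97 and 7.82 in shMITF DMSO cells, 7.65 and 7.62 in shSCR PLX4032 cells, against 8.68 and 8.68 in shSCR DMSO cells. All 4 of its groups stood apart, and its interaction was 0.52 ± 0.122 (adjusted p = 0.0177).

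The RFC3 interaction call was kept in 8 of 16 refits, CHAF1A's in 11, PRIM1's in 12 and PCNA's in 14. RFC3 lost it without shMITF PLX4032 B, shSCR DMSO B or either shMITF DMSO or shSCR PLX4032 array, and under both constitutive centrings. CHAF1A lost it without shMITF PLX4032 B, shMITF DMSO B or either shSCR PLX4032 array, PRIM1 without shMITF PLX4032 B, shMITF DMSO B or shSCR PLX4032 B, and PCNA without shMITF DMSO B (adjusted p = 0.0515), and all 3 also under the deviation centring. The interaction closest to 0 was that of MCM2 at -0.0071. Beyond CDC6, the lowest estimates were RRM2 at -0.70 (adjusted p = 0.0521) and MCM10 at -0.49 (adjusted p = 0.0509), which were not past the threshold.

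**Figure D4:**
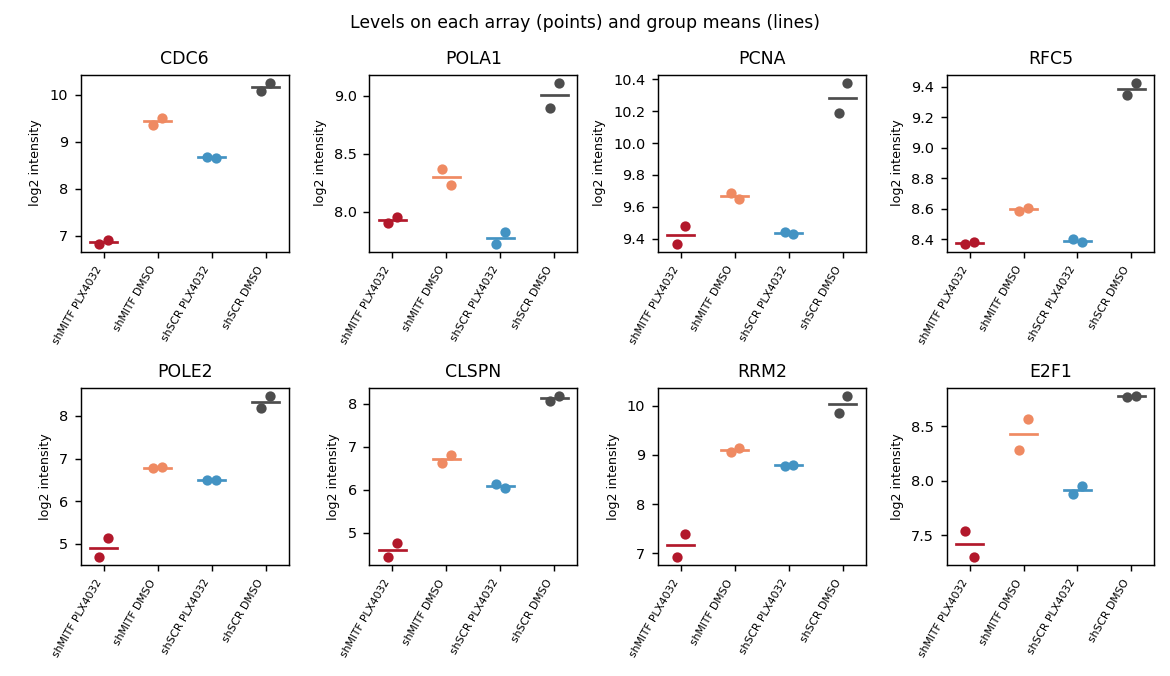
Log2 intensity of CDC6, POLA1, PCNA, RFC5, POLE2, CLSPN, RRM2 and E2F1 on each array (points, A left and B right) with group means (lines); the vertical axis is log2 intensity and differs between panels. The shSCR DMSO arrays are the highest in every panel, and in the PCNA, POLA1 and RFC5 panels the shMITF PLX4032 and shSCR PLX4032 arrays lie close together.

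Other genes of the same processes, taken from lists that do not contain the 41, were read from the same test. Of 32 further replication genes, 30 were called lower and 1 higher in shMITF PLX4032 against shSCR DMSO cells on the deposited scale, with a median of -0.87. With arrays centred on constitutive genes 15 were called lower and 7 higher. In that comparison and centring 5.75% of all genes were called lower and 86.1% higher, which applies to the lists below as well. The largest changes on the deposited scale were -2.83 ± 0.0845 for TICRR, which links kinases to origin firing, -2.55 ± 0.0832 for DSCC1, a clamp loader component, -2.40 ± 0.105 for the nuclease gene DNA2 and -2.11 ± 0.13 for WDHD1. The 1 called higher was POLD4, the smallest subunit of polymerase delta, at 0.26 ± 0.0926. Named after its values were seen, POLD4 measured 10.02 and 9.83 in shMITF PLX4032 cells, 10.14 and 10.15 in shMITF DMSO cells, 10.36 and 10.22 in shSCR PLX4032 cells, against 9.70 and 9.62 in shSCR DMSO cells, so that its shSCR PLX4032 arrays were highest. In the single perturbations the counts were 24 lower and 1 higher for the hairpin in DMSO, and 28 lower and 1 higher for PLX4032 in shSCR cells. With arrays centred on constitutive genes these became 26 lower and 1 higher for the hairpin in DMSO, and 9 lower and 12 higher for PLX4032 in shSCR cells. Of all genes, 23.0% were then called lower and 9.88% higher for the hairpin, and 2.47% and 92.8% for PLX4032.

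Nucleotide supply genes outside the list were called lower for 14 of 16 and higher for 2 with both perturbations, and for 9 and 2 under that centring. PPAT (-2.09 ± 0.105) and PAICS (-1.59 ± 0.0964), enzymes of purine synthesis, and CTPS1 (-1.89 ± 0.0868), which makes CTP, fell. SAMHD1, which breaks down deoxynucleotides, was one of the 2 called higher at 1.62 ± 0.0829. It measured 11.37 and 11.35 in shMITF PLX4032 cells, 10.48 and 10.34 in shMITF DMSO cells, 9.996 and 9.98 in shSCR PLX4032 cells, against 9.78 and 9.71 in shSCR DMSO cells. Its shMITF PLX4032 arrays were the highest of the 8 and its shSCR DMSO arrays the lowest, the reverse of RRM2. The other was RRM2B, the reductase subunit known from the p53 response, at 0.43 ± 0.0897, a gene named after its values were seen.

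E2F family and G1/S regulators were called lower for 15 of 18 genes and higher for 0 with both perturbations, and for 12 and 4 under that centring. CDC25A, the phosphatase that activates CDK2, changed by -2.999 ± 0.0769, CCNE2, a cyclin E gene, by -2.56 ± 0.133, MYBL2 by -2.15 ± 0.0896 and E2F8, a repressor of the family, by -2.09 ± 0.0857. CDK2, the kinase that drives S phase entry, had an interaction of -1.001 ± 0.132 (adjusted p = 0.000595), the one call below 0 in that list, as CDC6 was among the 41. CDK2 measured 10.36 and 10.35 in shMITF PLX4032 cells, 11.55 and 11.48 in shMITF DMSO cells, 11.89 and 11.66 in shSCR PLX4032 cells, against 11.89 and 11.98 in shSCR DMSO cells. Its shMITF PLX4032 arrays stood lowest, and its shSCR PLX4032 and shSCR DMSO values touched at 11.89. The fall of CDK2 with PLX4032 was called in shMITF cells (-1.16) and was not past the threshold in shSCR cells (-0.16). Among 13 chromatin duplication genes, 11 were called lower and 0 higher (6 and 4 under that centring), led by CDCA7 (-2.77 ± 0.0974), HELLS (-2.57 ± 0.128), ATAD2 (-2.25 ± 0.104) and ASF1B (-1.68 ± 0.108). Of the 9 constitutive genes themselves, 6 were called lower and 1 higher on the deposited scale, with TFRC (-2.22 ± 0.109) and HPRT1 (-1.67 ± 0.112) the largest, and 2 lower and 7 higher under that centring.

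**Figure D5:**
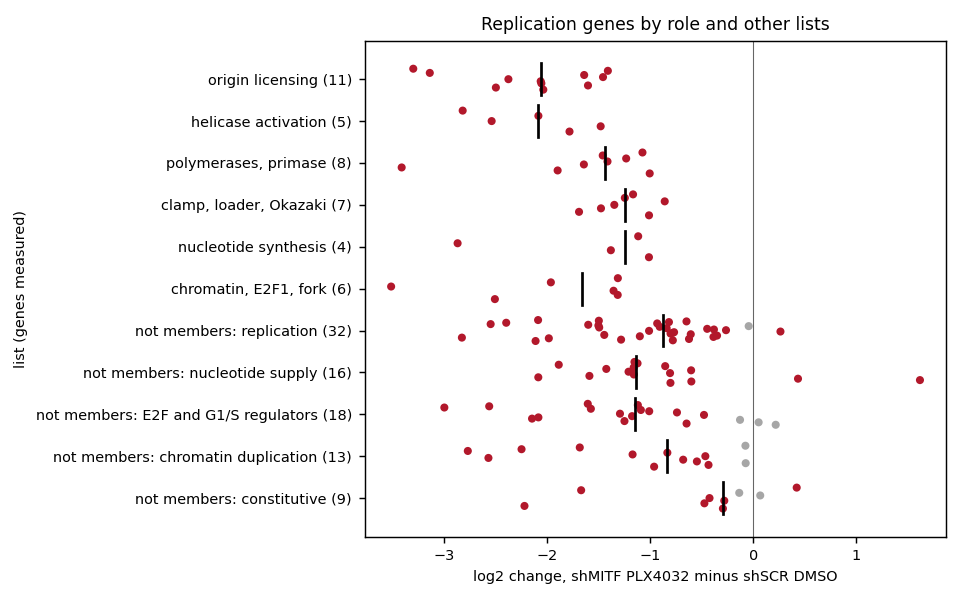
Log2 change in shMITF PLX4032 against shSCR DMSO cells for the 41 replication genes in 6 role lists and for genes of 5 other lists (points; red where called, grey where not; bars are list medians; numbers in brackets are genes measured). The 41 genes all lie at or left of -0.86, with signs that did not turn under any rescaling run, and the 9 constitutive genes spread from -2.22 for TFRC to 0.42 on the deposited scale.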

How the data were processed

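The values analysed were log2 intensities that the authors had deposited for 8 Affymetrix arrays of COLO829 total RNA; per the submitters' processing notes they were made with RMA, whose version, like the genome build, was not given in the sources used here. Total RNA had been extracted with an RNeasy Plus kit, per the labels' protocols. They spanned 2.10 to 13.53, none was missing, and 0 columns belonged to other samples. RMA pulls low signals towards a floor, so falls to dim levels may be understated. Of 32321 probe sets, 19158 had 1 gene symbol in the platform annotation, 1388 had several and 11775 had none. Symbols with several probe sets (637 genes) were represented by the brightest, which left 18404 genes, all tested. Group means were fitted to all 8 arrays with limma 3.58.1 in R 4.3.3 (lmFit, eBayes, two-sided, 4 residual and 6.73 prior degrees of freedom), with Benjamini-Hochberg adjustment over all genes and a threshold of 0.05. The precision of each value is limited by 2 arrays per group. The 41 genes and all other lists were chosen with earlier results of these data known, so no list was tested as a set. Values on every array are given for the 4 genes with the largest called change and the 2 with the smallest change in each comparison, for 13 genes that represent the roles, and for genes called in the interaction; each other list gives up to 4 with its largest called changes. Promoters came from RefSeq (GRCh38.p14). The fit was tested on simulated data. Tried as alternatives were 10 planned settings, leaving out each of the 8 arrays, and 1 centring, on the median deviation of constitutive genes, that was chosen after seeing the data.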

Additional observations from a re-analysis of the deposited data

Results flagged for a closer look

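For 7 of the 41 genes the PLX4032 change differed between shMITF and shSCR cells by the test of the interaction term (limma, Benjamini-Hochberg adjustment over all genes, adjusted p under 0.05). The difference in log2 change, shMITF minus shSCR, was -1.07 for CDC6, 0.85 for POLA1, 0.78 for RFC5, 0.61 for RFC3, 0.60 for PCNA, 0.53 for PRIM1 and 0.52 for CHAF1A. In 16 refits the estimates ranged from -1.26 to -0.98 for CDC6, from 0.66 to 0.96 for POLA1, from 0.59 to 0.82 for RFC5, from 0.42 to 0.78 for RFC3, from 0.41 to 0.70 for PCNA, from 0.34 to 0.60 for PRIM1 and from 0.33 to 0.60 for CHAF1A.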

How the results depend on the processing

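In the combined comparison, and for the hairpin in DMSO, no member changed sign under any setting run. Centring arrays on the median of 9 constitutive genes put the median of all genes at 0.79 (combined), 0.81 (PLX4032 in shMITF cells) and 0.87 (PLX4032 in shSCR cells) on the log2 scale, since that median fell on different genes on different arrays; the members' distance from all genes is fixed under any such centring. The members' medians then were -0.90 combined, -0.083 and -0.24 for PLX4032 in shMITF and shSCR cells and -0.72 for the hairpin under PLX4032, with 22 calls for PLX4032 in shMITF cells (13 lower, 9 higher) and 23 in shSCR cells (22 lower, 1 higher). Of all genes, 2.81% were then called lower and 92.1% higher for PLX4032 in shMITF cells, and 2.47% and 92.8% in shSCR cells. Signs turned for PLX4032 in shSCR cells in PRIM2 (0.25), POLD1 (0.096), RFC2 (0.013), FEN1 (0.21), TYMS (0.018), TK1 (0.15) and TIMELESS (0.15). In shMITF cells they turned in CDT1 (0.12), GINS3 (0.10), POLA1 (0.39), PRIM1 (0.085), PRIM2 (0.50), POLD1 (0.30), POLD3 (0.20), PCNA (0.52), RFC5 (0.55), FEN1 (0.21), LIG1 (0.37), RRM1 (0.31), TYMS (0.34), CHAF1A (0.24), CHAF1B (0.020) and TIMELESS (0.21). The hairpin change of CCND1 in DMSO turned to -0.012 and the RFC2 interaction to -0.034. Centring on the median deviation of those genes gave members' medians of -1.26 combined, -0.51 for the hairpin in DMSO, -0.80 for PLX4032 in shSCR cells, -0.51 for the hairpin under PLX4032 and -0.050 for the interaction, which was 0.14 before. The medians of all genes were then 0.43 combined, 0.30 for the hairpin in DMSO, 0.31 for PLX4032 in shSCR cells and 0.11 for the hairpin under PLX4032. Of all genes, 70.5% were called higher and 11.2% lower in the combined comparison. PCNA (0.073), RFC3 (0.0094) and RFC5 (0.074) turned sign for the hairpin under PLX4032, and RFC2 (-0.17) in the interaction. With quantile normalization repeated the hairpin's median in DMSO was -0.69, PCNA (0.0063) and RFC5 (0.030) turned sign for the hairpin under PLX4032, and the RFC2 interaction was -0.021. With the mean of a gene's probe sets the combined median was -1.48. Among the members the interaction gave 12 calls without the dimmest 40% of genes, 12 with eBayes trend and robust fitting and 3 at an adjusted p under 0.01, against 7. Shares of all genes called in the interaction under these settings are not reported here, so the counts show no shift particular to the members. In the combined comparison, 34.7% of all genes were called lower without the dimmest 40%, against 21.5% on the deposited scale. A 1.5-fold minimum left 21 members' calls for the hairpin under PLX4032, beside 993 of all 18404 genes called lower by that size.

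Leaving out each array in turn gave 3 to 10 interaction calls among the members, with 3 without shMITF DMSO B and 4 without shSCR PLX4032 B. The shares of all genes called in these refits are not reported here. Members' medians were -0.68 to -0.59 for the hairpin under PLX4032. Estimates near 0 that turned sign this way ranged from -0.068 to 0.041 (PCNA) and from -0.25 to 0.094 (RFC3) for the hairpin under PLX4032. In the interaction they ranged from -0.066 to 0.052 for MCM2, from -0.25 to 0.19 for POLE2 and from -0.0366 to 0.0747 for RFC2, and for the hairpin change of CCND1 in DMSO from -0.0071 to 0.11. With the replicate letter as a replicate block the members' calls were 41 combined, 41 for the hairpin in DMSO, 38 and 41 for PLX4032 in shMITF and shSCR cells, 35 for the hairpin under PLX4032 and 9 for the interaction. Of all genes, 21.6% were called lower and 27.5% higher in the combined comparison with that block, and the share for the interaction is not reported here. Same-letter arrays of different groups had deviations that correlated at -0.094 to 0.33 over all genes and at -0.21 to 0.47 over the 41, highest both times between shMITF PLX4032 and shSCR DMSO. As only that pair of groups passed 0.1 over all genes, the letters were not treated as a pairing. Over the 41 genes, shSCR PLX4032 also passed 0.1 with shMITF PLX4032 (0.28) and with shSCR DMSO (0.21). The shMITF DMSO group gave -0.21 with shMITF PLX4032, 0.050 with shSCR PLX4032 and 0.021 with shSCR DMSO. The cause of these shifts was not tested. The number of arrays, 2 per group, limits the precision of every estimate.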

Other observations

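Within the duplicate arrays, A was below B for 31 of the 41 genes in shMITF PLX4032 cells, 25 in shMITF DMSO cells, 18 in shSCR PLX4032 cells and 37 in shSCR DMSO cells. The median difference A minus B over the 41 genes was -0.11, -0.019, 0.0069 and -0.12 in those groups on the log2 scale, while over all genes it was -0.0078, 0.033, 0.029 and -0.026. The replication genes therefore shared a small offset between arrays A and B in shMITF PLX4032 and shSCR DMSO cells. In both groups its size was far smaller than that of the median combined change of -1.60.

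Among the 18 E2F and G1/S regulators, 6 genes were called higher and 1, CDK2, lower in the interaction, beside 6.97% and 4.85% of all genes. With arrays centred on the median deviation of constitutive genes 2 were higher and 3 lower. That centring moves the interaction of every gene by the same constant, so the turn is not particular to this list. E2F2 (1.02 ± 0.178), E2F8 (0.98 ± 0.121), E2F5 (0.69 ± 0.155), E2F7 (0.62 ± 0.139), RB1 (0.57 ± 0.12) and CCNA2 (0.44 ± 0.124) were the 6 called higher on the deposited scale. E2F2 was dim, at 5.10 and 4.86 in shMITF PLX4032 cells and 5.15 and 5.24 in shMITF DMSO cells. It measured 4.64 and 5.04 in shSCR PLX4032 cells, against 6.07 and 6.08 in shSCR DMSO cells. A further fall from such levels may be understated, so the size of the E2F2 interaction is uncertain. E2F5 measured 6.85 and 7.11 in shMITF PLX4032 cells, 8.24 and 8.17 in shMITF DMSO cells, 6.34 and 6.37 in shSCR PLX4032 cells, against 8.14 and 8.40 in shSCR DMSO cells. It was called higher in shMITF PLX4032 than in shSCR PLX4032 cells (0.62 ± 0.11), as was RB1 (0.30 ± 0.0849).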
